A study of Mus musculus with 9 samples.

Results

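Tnni3, Mylk3 and Chrm2 are genes of cardiac muscle whose mRNA was read on arrays of whole mouse aorta. Each gene was read by 1 probe, so the account below covers 3 of the 60834 probes that were tested. The genes were selected on their signal on these same arrays, as mRNAs that the study had picked for being higher with Ang II and lower again once MK-626 was added, and their spread between arrays was known when they were chosen. Their differences between groups and their spread are therefore a description of the selection. Intervals and calls are given for them only as measures of size and spread, and support nothing.

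Each of 3 groups, called Vehicle, Ang II and, for both agents together, Ang II + MK-626, held 3 arrays. All samples were aortae of male C57BL/6J mice aged 8 to 10 weeks that carried an osmotic pump for 2 weeks, loaded with PBS in the Vehicle group and with Ang II at 1 mg/kg/day in the other groups. Ang II is a peptide that raises blood pressure, and MK-626, given by mouth at 3 mg/kg/day, inhibits DPP-4, the enzyme that breaks down GLP-1. No group received MK-626 alone, and the Vehicle and Ang II samples carry labels of a companion experiment with berberine, a drug that none of the arrays used here received. The labels do not say whether a sample was 1 mouse or a pool, so that errors give the spread between these samples. In RNA of a whole vessel, fewer cells of a type and less RNA per cell cannot be told apart. Per the labels of all 9 samples, tissue adhering to the aortae was removed before RNA extraction.

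Contraction of heart muscle starts when calcium binds the troponin complex on the thin filament. Tnni3 encodes cardiac troponin I, the inhibitory subunit of that complex, which is used in the clinic as a marker of heart injury. Mylk3 encodes the cardiac myosin light chain kinase, which phosphorylates the regulatory light chain of the thick filament. Chrm2 encodes the M2 muscarinic receptor, through which acetylcholine slows the heart, and it is also found in smooth muscle and nerves.

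The sequence before the start of each gene is shown because the 3 genes were high and low in the same groups. Each window is from RefSeq on build GRCm38.p6 and runs 5′ to 3′ on the strand of the gene, with 250 bases before and 50 bases after the start site. Capitals mark every match, on either strand, to a set of motifs of muscle and heart genes. These were the MEF2 core CTATTTAT and a longer MEF2 site, the GATA factor motif AGATAA, the CArG box, the E-box CANNTG, the TEAD motif CATTCC, the NKX2-5 motif AAGTG and the TATA box TATAAA. The windows lie at chr7:4522479-4522778 on the minus strand for Tnni3, at chr8:85380992-85381291 on the minus strand for Mylk3 and at chr6:36387834-36388133 on the plus strand for Chrm2.
Tnni3: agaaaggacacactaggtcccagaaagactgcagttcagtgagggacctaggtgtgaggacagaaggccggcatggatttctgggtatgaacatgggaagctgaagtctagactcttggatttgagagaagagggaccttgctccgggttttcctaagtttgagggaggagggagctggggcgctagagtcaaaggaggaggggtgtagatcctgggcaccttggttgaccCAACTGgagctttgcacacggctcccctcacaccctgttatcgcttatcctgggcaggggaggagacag
Mylk3: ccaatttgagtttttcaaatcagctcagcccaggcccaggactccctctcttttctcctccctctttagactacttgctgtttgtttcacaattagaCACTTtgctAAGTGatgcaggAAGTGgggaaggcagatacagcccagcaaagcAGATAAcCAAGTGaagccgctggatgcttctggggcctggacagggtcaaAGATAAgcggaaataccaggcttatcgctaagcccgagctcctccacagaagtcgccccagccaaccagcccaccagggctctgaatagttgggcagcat
Chrm2: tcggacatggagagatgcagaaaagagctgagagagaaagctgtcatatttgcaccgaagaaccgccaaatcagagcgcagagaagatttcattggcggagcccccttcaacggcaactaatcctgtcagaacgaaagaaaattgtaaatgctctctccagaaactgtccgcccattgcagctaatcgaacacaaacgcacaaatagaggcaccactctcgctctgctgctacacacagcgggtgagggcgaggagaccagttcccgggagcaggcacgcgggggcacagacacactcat

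The Tnni3 window held 1 E-box and no other motif of the set. The Mylk3 window held 2 matches to AGATAA, 4 to AAGTG and 1 E-box, which overlaps 1 of the AAGTG matches. A second RefSeq start of Mylk3, at chr8:85365275-85365574 and not shown, held 1 match to CATTCC. The Chrm2 window held 0 matches. Thus no motif of the set was present at the first listed start of all 3 genes. Among 32851 RefSeq windows of this length, 72.3% held an E-box, 46.4% AAGTG, 14.7% CATTCC, 13.6% TATAAA, 11.2% AGATAA, 1.63% a CArG box, 1.1% CTATTTAT and 0.11% the longer MEF2 site. A match is a stretch of letters and not a bound site, and a window without one says only that the letters are not in it.

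Signals are given as the deposited normalized log2 values, on which a difference of 1 is a 2-fold change. Values of different probes were not set against each other as levels. Tnni3 measured 7.55, 7.70 and 7.67 on the Vehicle arrays, 12.57, 12.56 and 12.90 on the Ang II arrays, and 6.35, 8.11 and 9.23 on the Ang II + MK-626 arrays, in the order of replicates 1 to 3. Every Ang II array lay above every other array, and the Ang II + MK-626 arrays reached from below the lowest to above the highest Vehicle array. Mylk3 measured 5.32, 5.32 and 5.52 in Vehicle, 8.57, 8.81 and 7.69 in Ang II, and 4.06, 5.08 and 5.63 in Ang II + MK-626. Again the Ang II arrays were the highest, while replicates 1 and 2 of the Ang II + MK-626 group were below all Vehicle arrays and replicate 3 was above them.

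Chrm2 was the dimmest of the members relative to background. It measured 2.53, 3.95 and 3.41 in Vehicle, 7.41, 7.08 and 7.27 in Ang II, and 2.33, 3.39 and 3.70 in Ang II + MK-626. The Ang II arrays again stood apart, and the other groups overlapped. A probe was mostly well above background from a log2 value of about 3.93, the mean boundary of the Ang II + MK-626 arrays, and Chrm2 was not well above background on any of these 3 arrays. The boundary for the Vehicle arrays was taken over from them, since their background flags were not analysed here. The value of 2.33 is the floor of that array, a lower limit that 22.2% of its probes shared, so that it has no order relative to them.

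**Figure D1:**
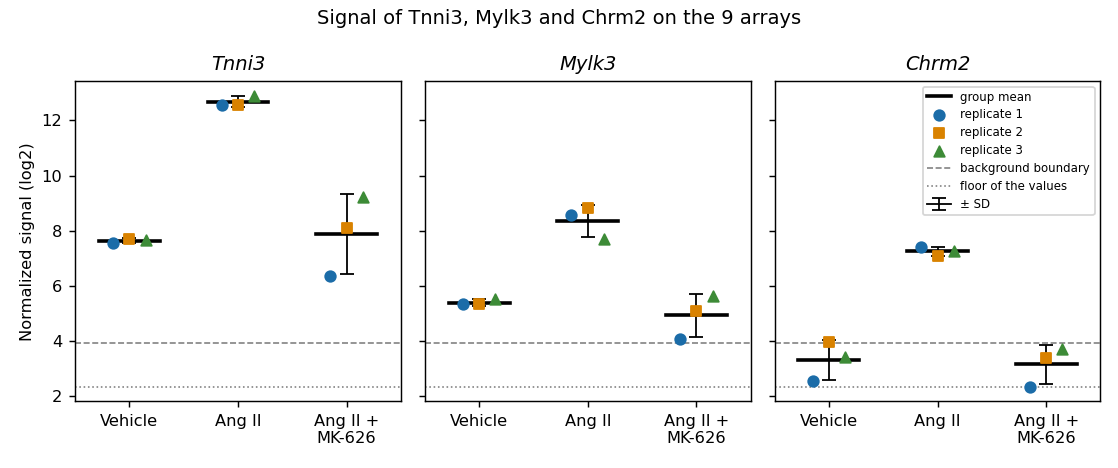
Normalized log2 signal (vertical axis) of Tnni3, Mylk3 and Chrm2 on each of the 9 arrays by group (horizontal axis), with the replicate number as symbol, the group mean as a bar and the SD as an error bar. The Ang II arrays are the highest in each panel, and the Ang II + MK-626 arrays of Tnni3 spread from 6.35 to 9.23. The dashed line is the background boundary and the dotted line the median floor of the arrays.

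The mean of Tnni3 was 12.68 ± 0.19 in Ang II, compared with 7.64 ± 0.08 in Vehicle and 7.89 ± 1.45 where MK-626 was added (SD, n = 3). The limma fit gave a log2 difference of 5.04 (SE 0.64, 95% interval 3.53 to 6.54) for Ang II over Vehicle, a 32.9-fold higher signal. This was the 21st highest of the 60834 differences. The fit shares 1 estimate of the spread over the 3 groups, so that the wide Ang II + MK-626 arrays enter this SE, which was 0.11 with Vehicle and Ang II fitted alone. With MK-626 added to Ang II the signal changed by -4.78 (SE 0.64, 95% interval -6.29 to -3.28), the 20th lowest of all probes.

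Mylk3 had a mean of 8.36 ± 0.59 in Ang II, compared with 5.39 ± 0.11 in Vehicle and 4.92 ± 0.79 where MK-626 was added (SD, n = 3). Its log2 difference for Ang II over Vehicle was 2.97 (SE 0.43, 95% interval 1.95 to 3.99), which is 7.82-fold, and the change with MK-626 was -3.43 (SE 0.43, 95% interval -4.45 to -2.41). The size of the change was thus smaller than that of Tnni3 in both comparisons.

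The mean of Chrm2 was 7.25 ± 0.16 in Ang II, compared with 3.30 ± 0.72 in Vehicle and 3.14 ± 0.72 where MK-626 was added (SD, n = 3). Because the Vehicle and Ang II + MK-626 arrays were at or near background, only a bound could be given for its change. Each dim array was set to the lowest log2 value that was well above background, or to its own value where that was higher. On this basis the approximate lower bound for Chrm2 was 10.6-fold for Ang II over Vehicle and 11.0-fold for Ang II over Ang II + MK-626. With the boundary of 3.93 as the level of the dim arrays, chosen after seeing the data, the bounds were 9.95-fold and 9.99-fold. Neither level is a strict limit. The probe of Cacna1c, at 4.01 on Ang II + MK-626 replicate 3, was not well above background either.

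The call for a difference was a fold over 2 together with an unadjusted p under 0.05 in limma. All 3 genes met this for Ang II over Vehicle, where 4.79% of all probes were called higher, and all 3 met it for the fall with MK-626, where 2.28% of all probes were called lower. The arrays did not overlap for any of the 3, where 16.4% of all probes had every Ang II array above every Vehicle array and 11.3% had every Ang II + MK-626 array below every Ang II array. These counts restate the choice of the genes.

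For Ang II + MK-626 against Vehicle, 0 of the 3 genes were called, where 4.03% of all probes were called in either direction. This comparison is the sum of the other comparisons and shares their arrays. The log2 difference was 0.25 for Tnni3 (95% interval -1.25 to 1.76) and -0.46 for Mylk3 (95% interval -1.48 to 0.56). For Chrm2 no fold is given, since both groups were near background. The intervals are wide, and they include a change of more than 2-fold in one direction or both, so that these values do not show that the signal of the treated mice equalled that of Vehicle. Without replicate 1 of the Ang II + MK-626 group, Tnni3 was 1.03 above Vehicle and passed the call, and without replicate 3 it was -0.41 from Vehicle. The difference of Mylk3 was -0.03 without replicate 1 and -0.82 without replicate 3.

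Tnni3 and Mylk3 varied in the same direction between the arrays of the Ang II + MK-626 group. Replicate 1 was the lowest array of that group, replicate 2 the middle and replicate 3 the highest for both genes. Tnni3 deviated from its group mean by -1.55, 0.21 and 1.33 and Mylk3 by -0.86, 0.16 and 0.70. From the lowest to the highest array the range was 7.37-fold for Tnni3 and 2.96-fold for Mylk3. The normalized values of Chrm2 deviated by -0.81, 0.25 and 0.56, but none of these arrays was well above background for Chrm2, so no shared order or range is read from it.

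This order was common. Of all probes, 39.6% had the arrays of this group in the same order, and 3.33% were more than 1 higher on the log2 scale on replicate 3 than on replicate 1. Among the 2913 probes that Ang II raised, the corresponding shares were 53.6% and 16.1%, and the median of replicate 3 minus replicate 1 was 0.34, compared with 0.04 over all probes. Among the 1043 probes that rose with Ang II and then fell when MK-626 was added, the shares were 57.0% and 14.0%, with a median of 0.37. The corresponding differences were 2.88 for Tnni3 and 1.57 for Mylk3. Of the 39324 probes with a mean above the background boundary, 99.7% had a smaller SD in this group than Tnni3 and 98.5% a smaller SD than Mylk3, and the median SD was 0.163.

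Tnni3 and Mylk3 did not have a common order in the other groups. In Vehicle their SD was 0.08 and 0.11, where the median SD of probes with a mean above the background boundary was 0.1155. In Ang II it was 0.19 for Tnni3 and 0.59 for Mylk3, where that median was 0.1825. Both genes in Vehicle, and Tnni3 in Ang II, thus varied little, which leaves little in which an order could be shared. In Vehicle, the deviations of Tnni3 were -0.09, 0.06 and 0.03, those of Mylk3 -0.06, -0.07 and 0.13 and those of Chrm2 -0.77, 0.65 and 0.11. The wide spread of Chrm2 there was at and below the background boundary. In Ang II, Tnni3 deviated by -0.10, -0.12 and 0.22 and Mylk3 by 0.21, 0.45 and -0.66, so that replicate 3 was the highest array for Tnni3 and the lowest for Mylk3. Chrm2 deviated by 0.15, -0.17 and 0.02. Over all 9 arrays, the root mean squared difference between the deviations was 0.48 for Tnni3 and Mylk3, 0.48 for Tnni3 and Chrm2 and 0.46 for Mylk3 and Chrm2. The values with Chrm2 include its arrays near background. No reference from other probes was computed for these distances, so they are not read as shared movement.

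**Figure D2:**
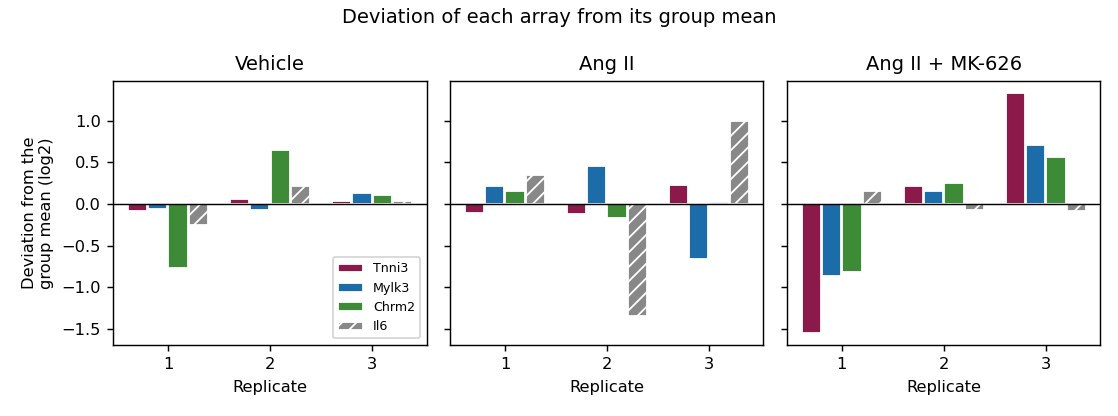
Deviation of each array from the mean of its group on the log2 scale (vertical axis) by replicate (horizontal axis) for the 3 genes and Il6, with a panel per group. In Ang II + MK-626 the bars of Tnni3 and Mylk3 run from below 0 on replicate 1 to above 0 on replicate 3, those of Chrm2 in Vehicle and Ang II + MK-626 are of values near background, and Il6 deviates most in Ang II.

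The same arrays were compared in Il6, the cytokine interleukin 6, which the study had also picked as raised and lowered again. Il6 measured 4.77, 5.25 and 5.07 in Vehicle, 7.85, 6.16 and 8.49 in Ang II, and 4.83, 4.59 and 4.58 in Ang II + MK-626. Its spread was widest in Ang II, with a range of 5.06-fold, and it was 1.19-fold in Ang II + MK-626, where replicate 1 was the highest array. The order of the Ang II + MK-626 arrays in Tnni3 and Mylk3 was therefore not that of Il6.

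The scanner signal before normalization was available for the Ang II + MK-626 arrays. Tnni3 gave 78.3, 261 and 487 intensity units and Mylk3 16.0, 31.6 and 37.8 on replicates 1 to 3, all of them well above background. The order of the arrays was therefore present for both genes before normalization. Chrm2 gave 4.75, 9.55 and 9.47, and replicates 2 and 3 were in the opposite order to that of the normalized values. The 75th percentile of the scanner signal was 234, 231 and 197 on these arrays, so that replicate 3, with the highest Tnni3 and Mylk3, was the dimmest array by this measure. With the scanner median signal, corrected with normexp at an offset of 50 and quantile normalized, replicate 3 was above replicate 1 by 2.16 for Tnni3 and 0.46 for Mylk3 on the log2 scale. In the deposited values this was 2.88 and 1.57. The scanner median signal of Mylk3 was only 40, 54 and 60, so that an offset of 50 narrows its range. The size of that range thus depends on how background is handled. Replicates 1 and 2 shared a scan and replicate 3 had another. Within the shared scan, replicate 2 was above replicate 1 by 1.76 for Tnni3 and 1.02 for Mylk3 in the deposited log2 values. In the normexp values, replicates 1 and 2 were at 7.01 and 8.29 for Tnni3, and closer together, at 6.24 and 6.47, for Mylk3.

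**Figure D3:**
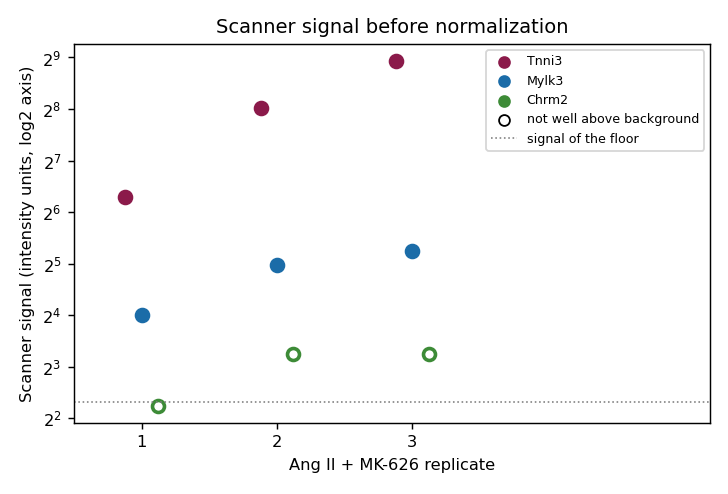
Scanner signal in intensity units on a log2 axis (vertical) for Tnni3, Mylk3 and Chrm2 on each Ang II + MK-626 replicate (horizontal), where open symbols were not well above background. Tnni3 runs from 78.3 to 487 and Mylk3 from 16.0 to 37.8, and Chrm2 stays at or below 9.55, close to the dotted line at the signal of 5 that set the floor.

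For each Ang II + MK-626 array, the share of the Ang II change that was undone was computed on the log2 scale, so that 0 is the Ang II mean and 1 the Vehicle mean. For Tnni3 this share was 1.26, 0.91 and 0.68 on replicates 1 to 3, and for Mylk3 1.45, 1.10 and 0.92. Replicate 1 was past the Vehicle mean in both genes, and replicate 3 was short of it. The computed shares of Chrm2 were 1.24, 0.98 and 0.90, and since both the arrays and the Vehicle mean were near background, they say only that its signal returned to about background. For Il6 the share was 1.08, 1.18 and 1.18. The median over the 2913 probes raised by Ang II was 0.65, 0.52 and 0.42, lower on each array than the shares of Tnni3 and Mylk3 and in the same order. These probes were taken whether or not they fell with MK-626, whereas Tnni3 and Mylk3 were picked for falling. Their larger shares therefore follow from the choice of the genes.

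**Figure D4:**
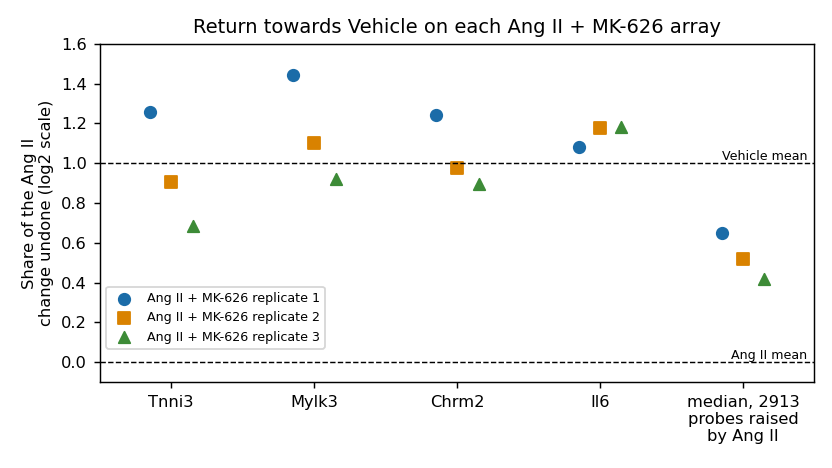
Share of the Ang II change that was undone on each Ang II + MK-626 array (vertical axis, log2 scale, 0 at the Ang II mean and 1 at the Vehicle mean) for the 3 genes, Il6 and the median of the probes raised by Ang II. Replicate 1 is the highest and replicate 3 the lowest for Tnni3, Mylk3 and the median, but not for Il6, and the points of Chrm2 are of values near background.

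Tnni3 differed more from its Vehicle mean than Mylk3 did on each Ang II array. Relative to Vehicle, the difference of Tnni3 over Mylk3 was 1.76, 1.50 and 2.96 on the log2 scale on the Ang II arrays. On the Ang II + MK-626 arrays it was 0.03, 0.78 and 1.35. Among the Ang II + MK-626 arrays, the distance between Tnni3 and Mylk3 was thus close to that of Vehicle on the array with the lowest signal and widest on the array with the highest. In Ang II it was widest on replicate 3, the highest array of that group for Tnni3 and the lowest for Mylk3. Chrm2 is not set against them in this way, since its Vehicle mean lay below the background boundary and its change is known only as a bound.

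Profiles most like those of the 3 genes were sought among all probes by the root mean squared difference of values centred on the probe's mean over the 9 arrays. The nearest probe to Tnni3 was ASMM10P026395, at a distance of 0.40, which was also the second nearest to Chrm2 at 0.45. It measured 5.66, 5.62 and 5.92 in Vehicle, 9.76, 9.89 and 10.05 in Ang II, and 4.52, 5.70 and 6.88 in Ang II + MK-626, the same order of arrays in the last group. The nearest probe to Chrm2 was ASMM10P034170 at 0.40. The nearest to Mylk3, at 0.45, was below the background boundary on 6 of the 9 arrays, among them those of Ang II + MK-626, so that no order of arrays is read from it. The second nearest to Mylk3, at 0.49, was above the boundary on all arrays and measured 4.75, 5.51 and 5.93 in Ang II + MK-626, the same order as Mylk3. No table at hand pairs these probes with a gene. Within a distance of 1 lay 37 probes for Tnni3, 493 for Mylk3 and 86 for Chrm2. Tnni3 and Mylk3 shared 24 of them, which is 64.9% of the probes near Tnni3 and 4.87% of those near Mylk3, and were themselves 0.99 apart. The search also used the values on the Ang II + MK-626 arrays, so the shared order of arrays in the nearest probes follows from the search. Of all probes, 39.6% had that order, as had 53.6% of the probes raised by Ang II. These distances include the rise in Ang II for which the genes were chosen, and for Chrm2 they rest mainly on it, since its other arrays were at or near background. Its overlap with the other genes is therefore not given.

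Whether heart tissue was present on the aortae was not tested. The files give 0 probes with a gene name, and the probes of further heart, atrial or ventricular markers were not named here, so no level of heart tissue per array could be set beside Tnni3, Mylk3 and Chrm2. For the same reason the labelled tissue was not checked against markers of smooth muscle or endothelium. By qRT-PCR, the study reports similar changes of Tnni3, Mylk3 and Chrm2 in aortae and in cultured aortic endothelial cells. It had also picked Tnnc1 and Trdn, which are on the list of heart markers fixed here, as raised by Ang II and modulated by MK-626. It prints no values per array for them, and does not name them among the mRNAs that qRT-PCR found suppressed by MK-626.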

How the data were processed

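RNA of whole aorta was hybridized to 1-colour Agilent arrays. Per the labels, spot intensity was extracted with Agilent Feature Extraction 11.0.1.1, and the authors applied quantile normalization in GeneSpring GX and deposited log2 values of 60902 probes. The deposited log2 values have a floor on each array. On the arrays with scanner files, all probes at the floor had a scanner signal under 5, and few probes above it did. Deposited scanner intensity was read for 3 arrays, all of the Ang II + MK-626 group.

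Control probes (68) were left out. The probes of Tnni3, Mylk3 and Chrm2 were identified by their values on the 9 arrays, which equalled those the study lists for these genes within 4.0e-06 on the log2 scale, whereas any other probe was off by 0.931 or more. All 60834 probes were fitted with limma 3.58.1 in R 4.3.3, 1 mean per group, Benjamini-Hochberg adjusted p over all probes. The methods name one-way ANOVA at a fold over 2 and p under 0.05. The fit was tested on simulated data. Python 3.11.15, numpy 2.4.6, pandas 2.3.3 and matplotlib 3.10.9 were used.

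Depth is the signal over background. On the arrays with scanner files, 39266 to 40572 probes were flagged well above background and 0 as saturated. Precision is limited by the number of arrays. The genes, lists and motifs were chosen with earlier results of these data known. Named beside the genes were the other mRNAs that the study lists per array and, of the 2 nearest probes of each gene, at most 2 in all, since the probes have no gene name here. Lists of cell type markers were not read, since the files name no probe.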

Additional observations from a re-analysis of the deposited data

How the results depend on the processing

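Alternatives were cyclic loess, other scanner scalings, array weights, other settings of the fit, a replicate block and leaving out each array. Of 144 recomputed differences between groups, 139 kept their direction and their side of the threshold. Of 12 recomputed differences of replicate 3 minus replicate 1, 10 moved by less than the SD of the gene in that group. The exceptions were Mylk3 and Chrm2 with normexp. The 30 recomputed distances between the deviations of the genes were 0.34 to 0.51, compared with 0.46 to 0.48 in the main setting. The limit set for them, the mean SD of the genes, was about as large as the distances themselves. It could hardly be exceeded, so these distances are not counted as a check. For Ang II + MK-626 against Vehicle, leaving out 1 array gave log2 differences of -0.41 (without Ang II + MK-626 replicate 3) to 1.03 (without replicate 1) for Tnni3, of -0.82 to -0.03 for Mylk3 and of -0.54 to 0.25 for Chrm2, which was 0.17 without Vehicle replicate 2 and 0.25 without Ang II + MK-626 replicate 1. With array weights, of which Ang II + MK-626 replicate 2 had the highest (129.4, the others at most 5.02), the Chrm2 difference was 0.60. Both groups are near background for Chrm2, so no direction is read from these values. Background correction of the scanner median signal by normexp, chosen after seeing the data, gave a difference of replicate 3 minus replicate 1 of 0.46 for Mylk3 and 0.15 for Chrm2, with 2.16 for Tnni3. The planned correction of the mean signal was not run, since the files used here have no such column. Same-numbered arrays correlated at -0.12 to 0.04 in their deviations, so no shared effect of the replicate number was visible over all probes. This cannot show whether same-numbered samples were handled together. With the replicate block, the Tnni3 difference of Ang II over Vehicle was 5.04, as without it, and no call of the 3 genes changed. Signal over background limits Chrm2, and the scans of the Vehicle and Ang II arrays are not known here, so scan could not be fitted.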

Other observations

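The mRNAs that the study had picked as lowered by Ang II and raised again with MK-626 gave the following shares of the Ang II change undone on Ang II + MK-626 replicates 1 to 3, on the same scale as for Tnni3, Mylk3 and Chrm2. Itga8, an integrin subunit, gave 0.93, 0.85 and 0.70. Npnt, a matrix ligand of that integrin, gave 1.06, 0.81 and 0.71. Itgav, a further integrin subunit, gave 1.01, 0.90 and 0.89. In Itga8 and Npnt the share was highest on replicate 1 and lowest on replicate 3, as for Tnni3 and Mylk3, and in Itgav replicates 2 and 3 were nearly equal. No share is given for Cacna1c, a calcium channel subunit, since its probe was at the floor on Ang II replicates 1 and 2. Its log2 values on the Ang II + MK-626 arrays were 4.15, 4.42 and 4.01, so that replicate 2 was the highest, and replicate 3 was not well above background.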
